A study of Mus musculus with 6 samples.

Results

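The genes Sla, Cdkl2, Nxph3, Adamts4, Ccbe1, Marc2, Aox4 and Masp1 were followed across cultured mouse cortical neurons that were wild type or labelled Ptbp2 knockout. These 8 genes, of 49671 in the deposited table, were chosen by a large and consistent difference in their gene-level counts between knockout and wild type after 1 day in vitro (DIV1). That difference is therefore given as a description, with no test. All 8 passed the filter on low counts. RNA came from C57BL/6 cortical neurons of embryonic day 14, in 3 groups of 2 libraries: DIV1 wild type, DIV3 wild type and DIV1 Ptbp2 KO, with no other allele or agent in the labels. Cells had been plated in medium with horse serum and moved later to feeding medium with B-27, in every group. The labels do not say which part of Ptbp2 was removed, in which cells, or whether embryos were pooled. The submitters describe 2 biological replicates per group without naming separate cultures or embryos, and the p-values here reflect the spread of these libraries, which may be technical. Libraries held between 39104879 and 75522198 expected counts, the read counts estimated per gene by the authors' software.

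PTBP2, the product of Ptbp2, is an RNA binding protein of developing neurons that attaches to pyrimidine-rich stretches of pre-mRNA and mostly keeps exons out of the message. The 8 genes belong to different pathways. Sla encodes the Src-like adaptor protein, which binds activated tyrosine kinases and their receptors and is best known from lymphocytes. Cdkl2 encodes a serine/threonine kinase of the CDKL family. Nxph3 encodes a secreted neurexophilin, a ligand of alpha-neurexins, the presynaptic adhesion molecules. Adamts4 and Ccbe1 act outside the cell, the first as a protease of hyalectan proteoglycans and the second as a cofactor in the maturation of the growth factor VEGFC. Marc2 and Aox4 encode enzymes that carry a molybdenum cofactor. Masp1 encodes a serine protease of the lectin pathway of complement.

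The targeted gene Ptbp2 stood at 465 and 429 CPM (counts scaled to the TMM-adjusted library total) in DIV1 wild type and at 474 and 514 CPM in the libraries labelled knockout, so its total does not check the label. All 12 cortical neuron markers were detected, with a summed level of 7925 to 8147 CPM in DIV1 wild type, 10958 to 11034 CPM at DIV3 and 7212 to 7566 CPM in the knockout. The pair of knockout libraries was the least alike. The SD over genes of the log2 difference between replicates was 0.50 for knockout, 0.38 for DIV1 wild type and 0.39 for DIV3. The log2 difference of replicate 1 and replicate 2 was related to transcript length, with Spearman correlations over genes (no independent replicates) of -0.48 for knockout, 0.25 for DIV1 wild type and 0.28 for DIV3. Between knockout and wild type, edgeR's quasi-likelihood test called 0 of 16847 genes at an adjusted p under 0.05 (2475 at an unadjusted p under 0.05), and DESeq2 called 208. The edgeR count was 5549 without knockout replicate 2 and 43 without knockout replicate 1.

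Promoter sequences of Cdkl2 and Aox4 are shown because these genes had the largest knockout differences of the 8, and because the Cdkl2 windows precede separate start sites whose transcripts are compared further on. RefSeq windows (GRCm38.p6) were matched for Cdkl2, Aox4 and Marc2. The 250 bases before each annotated start are printed 5′ to 3′ on the transcribed strand. The window at chr5:92043043-92043292, minus strand, precedes the start of the transcript Cdkl2-202 at 92043042. Cdkl2-201 starts beside it at 92043041, so this window lies before both. The window at chr5:92042697-92042946, minus strand, precedes the start of Cdkl2-204 and lies within the span of Cdkl2-201 and Cdkl2-202. The Aox4 window, chr1:58210147-58210396 on the plus strand, precedes the start of Aox4-201. Capitals mark matches on either strand to any of 5 motifs: the TATA box as TATAAA, the CCAAT box as CCAAT, the GC box as GGGCGG, an E-box as CAGATG and the cyclic AMP response element as TGACGTCA.
Cdkl2 before Cdkl2-202: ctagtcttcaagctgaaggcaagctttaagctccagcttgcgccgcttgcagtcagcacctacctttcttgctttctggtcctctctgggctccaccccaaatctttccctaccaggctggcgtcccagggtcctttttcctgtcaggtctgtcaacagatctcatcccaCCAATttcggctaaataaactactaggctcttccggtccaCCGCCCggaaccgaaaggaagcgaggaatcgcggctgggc
Cdkl2 before Cdkl2-204: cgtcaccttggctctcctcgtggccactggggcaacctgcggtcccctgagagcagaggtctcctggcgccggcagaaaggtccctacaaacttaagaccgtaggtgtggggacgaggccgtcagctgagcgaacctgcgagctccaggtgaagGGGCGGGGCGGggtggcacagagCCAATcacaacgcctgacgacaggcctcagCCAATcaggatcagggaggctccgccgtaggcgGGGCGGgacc
Aox4 before Aox4-201: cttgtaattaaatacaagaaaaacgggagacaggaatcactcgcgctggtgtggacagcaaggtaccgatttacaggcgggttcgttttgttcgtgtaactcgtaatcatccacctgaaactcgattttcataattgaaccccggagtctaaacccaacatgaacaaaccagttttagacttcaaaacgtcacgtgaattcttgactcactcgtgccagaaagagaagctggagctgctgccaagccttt

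The window before Cdkl2-204 held 5 matches. Its 2 CCAAT matches began 73 and 43 bases before the start, and its 3 GGGCGG matches began 96, 91 and 10 bases before it, the upstream pair sharing a base. The window before Cdkl2-202 held 2 matches, a CCAAT that began 80 bases before the start and a GGGCGG on the other strand that began 40 bases before it. The Aox4 window held 0 matches. Of 32851 windows of the same length, 33.8% held CCAAT, 32.7% GGGCGG, 14.4% CAGATG, 12.4% TATAAA and 1.55% TGACGTCA. GC content was 66.4% before Cdkl2-204, 55.2% before Cdkl2-202 and 44.8% before Aox4-201, against a median of 52.4% over all windows.

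At DIV1 the libraries labelled knockout held less RNA of 7 of the genes and more of Masp1. In each of the 7, both knockout values lay below both wild-type values, as they did for 26.2% of all genes tested, and both Masp1 values lay above, as for 26.9%. These directions were part of the choice of the genes and are no evidence of their own. In bulk samples, fewer cells of a type and less RNA per cell cannot be told apart. Values per library below are in the order replicate 1, replicate 2, and fold changes are log2 values from the edgeR fit with their standard error (SE).

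**Figure D1:**
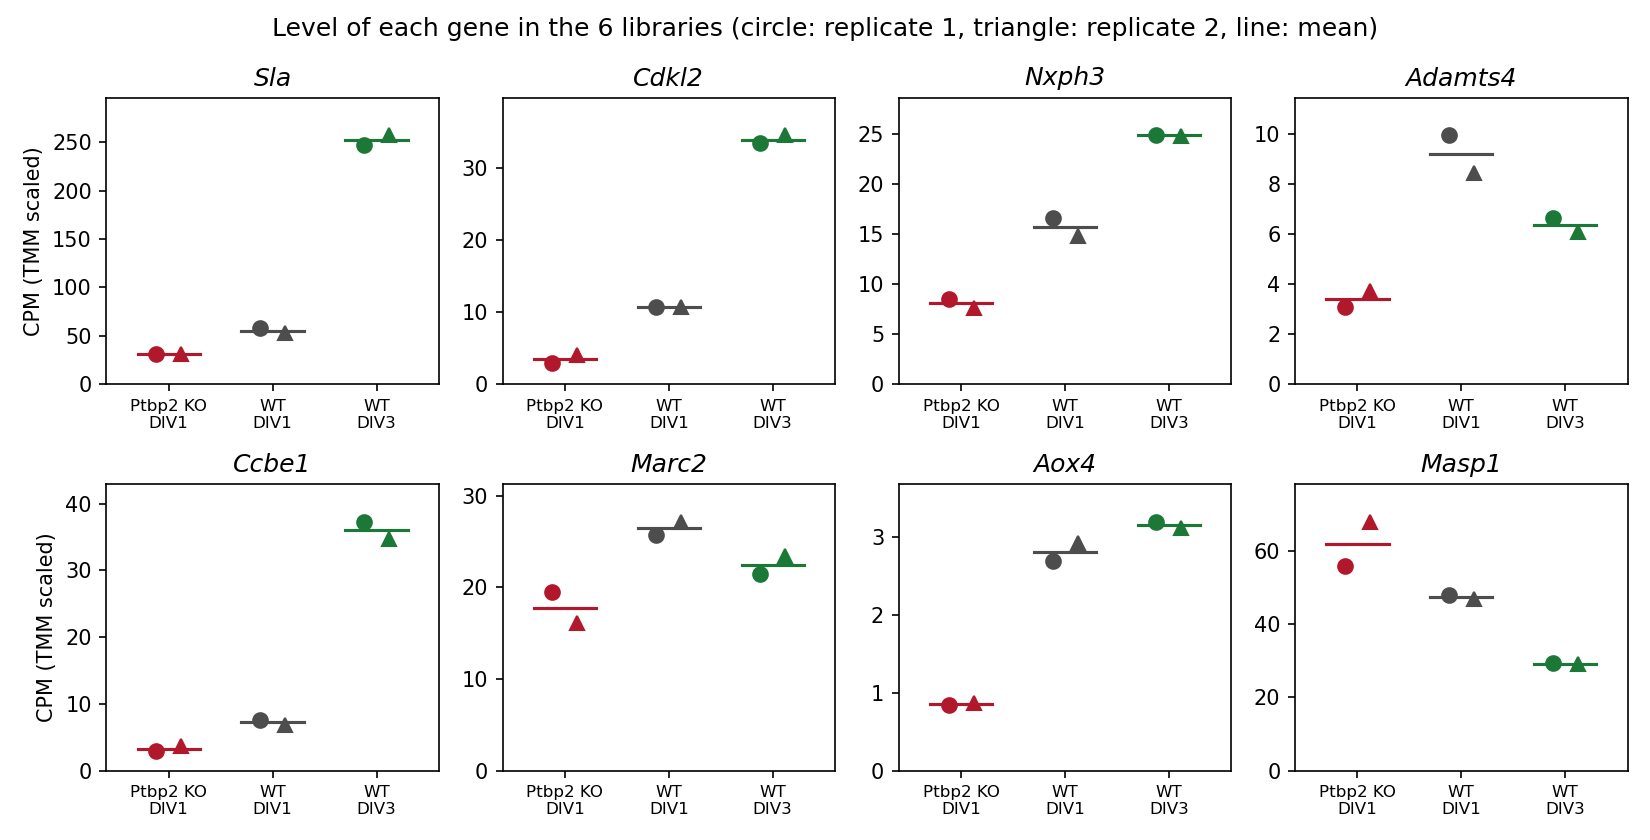
Level of each of the 8 genes (CPM, linear axis from 0) in DIV1 Ptbp2 KO, DIV1 wild type and DIV3 wild type, with circles for replicate 1, triangles for replicate 2 and lines for the mean of 2 libraries. Sla, Cdkl2, Nxph3 and Ccbe1 climb from knockout through DIV1 to DIV3 wild type, Masp1 descends in that order, and the knockout holds the lowest values of Adamts4, Marc2 and Aox4.

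Cdkl2 (ENSMUSG00000029403, chromosome 5, 92006074 to 92043883, minus strand, GRCm38) was measured at 10.8 and 10.8 CPM in DIV1 wild type and 2.99 and 4.01 CPM in the knockout. Its level was 3.07-fold lower in the knockout, a log2 fold change of -1.62 ± 0.15. Of the 11066 genes averaging at least 5 CPM, it had rank 1 among those lower in the knockout, and of all 16847 genes tested rank 40. Aox4 (ENSMUSG00000038242, chromosome 1, 58210397 to 58268597, plus strand), an aldehyde oxidase gene, was measured at 2.69 and 2.93 CPM in DIV1 wild type and 0.841 and 0.870 CPM in the knockout. Its log2 fold change was -1.71 ± 0.16, the largest of the 8 in size, from 45 and 64 counts in the knockout libraries. Adamts4 (ENSMUSG00000006403, chromosome 1, 171250421 to 171260637, plus strand) was measured at 9.94 and 8.45 CPM in DIV1 wild type and 3.10 and 3.71 CPM in the knockout, a log2 fold change of -1.43 ± 0.15. Its groups were apart by more than the distance between replicates, a consistency that was part of the choice of the genes.

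Ccbe1 (ENSMUSG00000046318, chromosome 18, 66045302 to 66302741, minus strand) was measured at 7.60 and 6.80 CPM in DIV1 wild type and 2.91 and 3.63 CPM in the knockout, a log2 fold change of -1.13 ± 0.14. Nxph3 (ENSMUSG00000046719, chromosome 11, 95509845 to 95514570, minus strand) was measured at 16.6 and 14.8 CPM against 8.57 and 7.60 CPM, a log2 fold change of -0.96 ± 0.12. Sla (ENSMUSG00000022372, chromosome 15, 66780819 to 66831829, minus strand) was measured at 57.6 and 53.2 CPM against 31.6 and 30.8 CPM, a log2 fold change of -0.83 ± 0.08. For these 3 genes the knockout level was 1.78-fold to 2.19-fold lower. The groups did not overlap, a consistency that was part of the choice of the genes.

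The smallest differences were those of Marc2 and Masp1. Marc2 (ENSMUSG00000073481, chromosome 1, 184813068 to 184846451, minus strand), a mitochondrial reductase of N-hydroxylated compounds, was measured at 25.7 and 27.2 CPM in DIV1 wild type and 19.5 and 16.1 CPM in the knockout, a log2 fold change of -0.58 ± 0.12. Masp1 (ENSMUSG00000022887, chromosome 16, 23449417 to 23520815, minus strand) was measured at 48.0 and 46.7 CPM in DIV1 wild type and 55.7 and 67.9 CPM in the knockout, a log2 fold change of 0.38 ± 0.11. Neither is among the strongest shifts: by size, over genes averaging at least 5 CPM, Marc2 had rank 223 of 5648 lower genes and Masp1 rank 510 of 5415 higher genes. Adamts4 had rank 6, Ccbe1 rank 24, Nxph3 rank 41 and Sla rank 70 of the lower genes, and Aox4, with a mean of 2.28 CPM, was under that level. Over all genes tested, Aox4 had rank 34 of 8443 lower genes, Adamts4 77, Ccbe1 182, Nxph3 301, Sla 428 and Marc2 923. Masp1 had rank 1664 of 8398 higher genes. Just outside the listed range lay Kcnq3 and Pla2g12a, each at -0.57, next after Marc2, and Fdx1l and Mad2l2, each at 0.38, next after Masp1. The median log2 fold change of the 8 was -1.04, against -0.001 for all genes tested.

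Replicate differences were related to transcript length in every group, so the fit was repeated with a length trend removed from each of the 6 libraries. The part of transcript length in the knockout differences was not tested. The 8 genes have mean transcript lengths, weighted by their counts, between 1271 nt (Marc2) and 5345 nt (Masp1). With the trend removed, the log2 fold change in the knockout was -1.57 for Aox4, -1.54 for Cdkl2, -1.32 for Adamts4, -0.98 for Ccbe1, -1.04 for Nxph3, -0.82 for Sla, -0.77 for Marc2 and 0.54 for Masp1. Without knockout replicate 1 and without knockout replicate 2 the values were -1.43 and -1.85 for Cdkl2, -0.72 and -0.44 for Marc2, and 0.52 and 0.23 for Masp1. Since the genes were chosen for a consistent difference in these libraries, that the signs stayed the same carries no information.

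**Figure D2:**
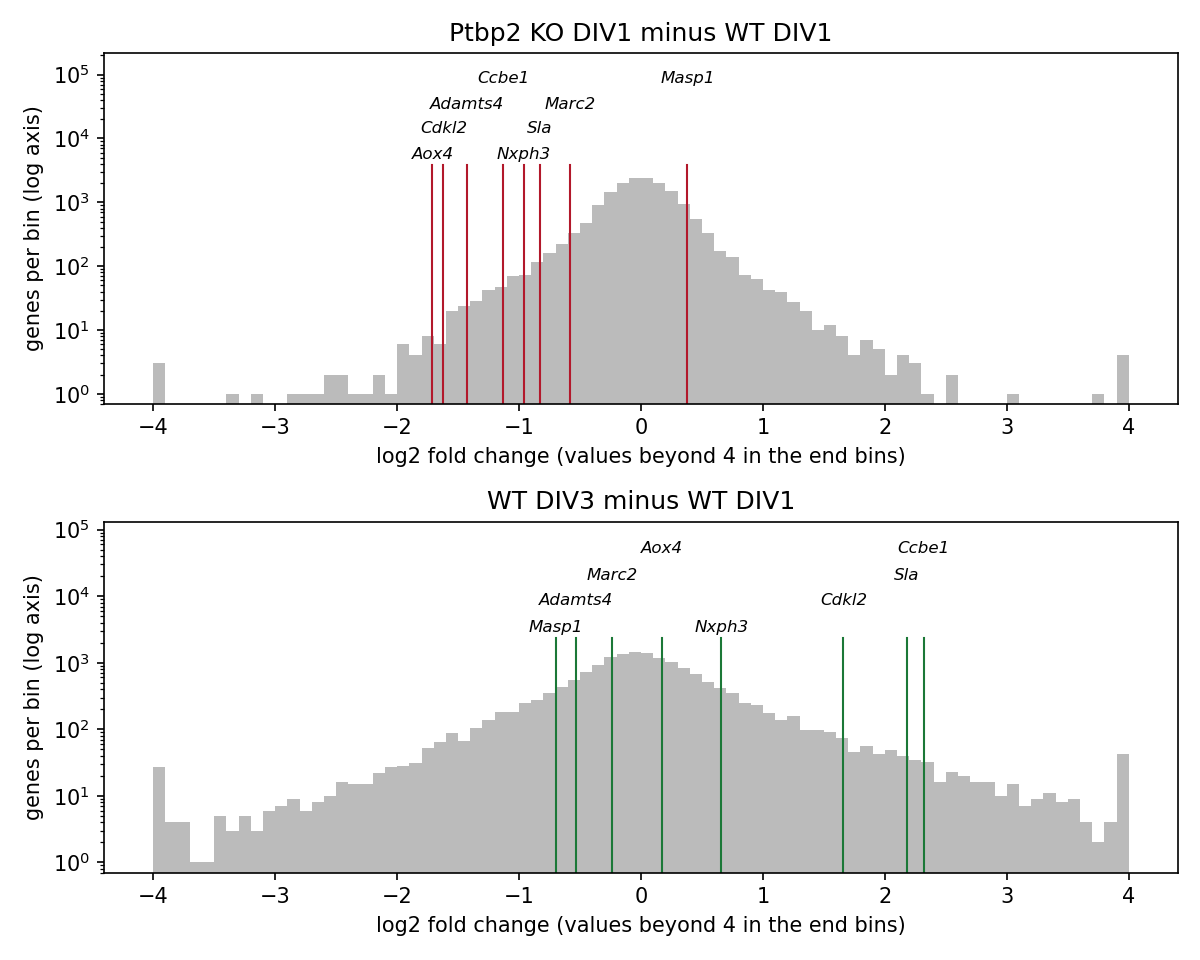
Histograms of the log2 fold change (bins of 0.1, log count axis) of all 16847 genes tested, with a line for each of the 8 genes; the upper panel is Ptbp2 KO DIV1 minus WT DIV1, the lower WT DIV3 minus WT DIV1. In the knockout panel Aox4 (-1.71) and Cdkl2 (-1.62) lie in the sparse lower tail while Marc2 (-0.58) and Masp1 (0.38) lie near the bulk, and in the lower panel Sla (2.18) and Ccbe1 (2.32) lie in the upper tail.

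The wild-type course asked how the same genes behave between DIV1 and DIV3, the days around which axons form in such cultures. Sla, Cdkl2, Ccbe1 and Nxph3 rose, Masp1 and Adamts4 fell, and Marc2 and Aox4 did not pass the test. This comparison uses the same wild-type DIV1 libraries as the knockout difference, so the pair of differences is not independent. By edgeR's quasi-likelihood test over 16847 genes, 36.1% of all genes were called, 19.8% higher and 16.4% lower, beside 4 higher and 2 lower of these 8. Both DIV3 libraries lay above both DIV1 libraries for 5 of the 8 (37.3% of all genes) and below for 3 (38.8% of all genes). The median log2 fold change of the 8 was 0.42, against -0.02 for all genes.

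Sla rose from 57.6 and 53.2 CPM to 247 and 257 CPM at DIV3, 4.55-fold (2.18 ± 0.08 on the log2 scale; edgeR quasi-likelihood test with Benjamini-Hochberg adjustment, adjusted p = 5.85e-05). Ccbe1 rose from 7.60 and 6.80 CPM to 37.3 and 34.7 CPM (2.32 ± 0.14, adjusted p = 0.00012, edgeR). Cdkl2 rose from 10.8 CPM in both libraries to 33.5 and 34.6 CPM (1.66 ± 0.14, adjusted p = 0.000345, edgeR). In these 3 genes the DIV3 libraries lay more than 3-fold above those of DIV1, with each pair of replicates close together. Nxph3 rose from 16.6 and 14.8 CPM to 24.9 and 24.8 CPM (0.66 ± 0.11, adjusted p = 0.00468, edgeR). Its call was lost without wild-type DIV1 replicate 2, where the log2 fold change was 0.58 (adjusted p = 0.068, edgeR).

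Masp1 fell from 48.0 and 46.7 CPM to 29.3 and 29.0 CPM (log2 fold change -0.70 ± 0.11, adjusted p = 0.00312, edgeR). Adamts4 fell from 9.94 and 8.45 CPM to 6.64 and 6.09 CPM (-0.53 ± 0.15, adjusted p = 0.0303, edgeR). The Adamts4 groups do not overlap, but the call was lost without wild-type DIV1 replicate 1 (adjusted p = 0.198, edgeR), DIV1 replicate 2 (0.0724), DIV3 replicate 1 (0.105) or DIV3 replicate 2 (0.158). Marc2 was measured at 25.7 and 27.2 CPM at DIV1 and 21.5 and 23.4 CPM at DIV3 (-0.24 ± 0.12, adjusted p = 0.182, edgeR; 0.0395 without knockout replicate 1, whose spread enters the fit). Aox4 was measured at 2.69 and 2.93 CPM at DIV1 and 3.20 and 3.12 CPM at DIV3 (0.17 ± 0.15, adjusted p = 0.414, edgeR). Markers of other cells also moved over this interval. Of the pericyte and fibroblast markers, 8 of 9 tested were higher at DIV3 (summed level 17.0 to 18.3 CPM at DIV1 and 54.6 to 54.7 CPM at DIV3), of the astrocyte markers 5 of 6 were higher and 1 lower (242 to 254 and 326 to 358 CPM), and of the oligodendrocyte lineage markers 3 of 7 were higher and 0 lower (30.8 to 31.6 and 48.0 to 52.6 CPM). Of the progenitor markers, 6 of 8 were lower and 1 higher (2384 to 2453 and 1905 to 1969 CPM), and of the erythroid markers 5 of 6 were lower (12.3 to 23.7 and 1.17 to 1.40 CPM). Of the microglia markers, 2 of 8 were lower and 1 higher (9.17 to 9.59 and 3.93 to 7.75 CPM), and 0 of 3 tested endothelial markers passed (3.65 to 4.02 and 2.51 to 3.96 CPM for all 7). The part of these cells in the rises and falls of the 8 genes was not tested.

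**Figure D3:**
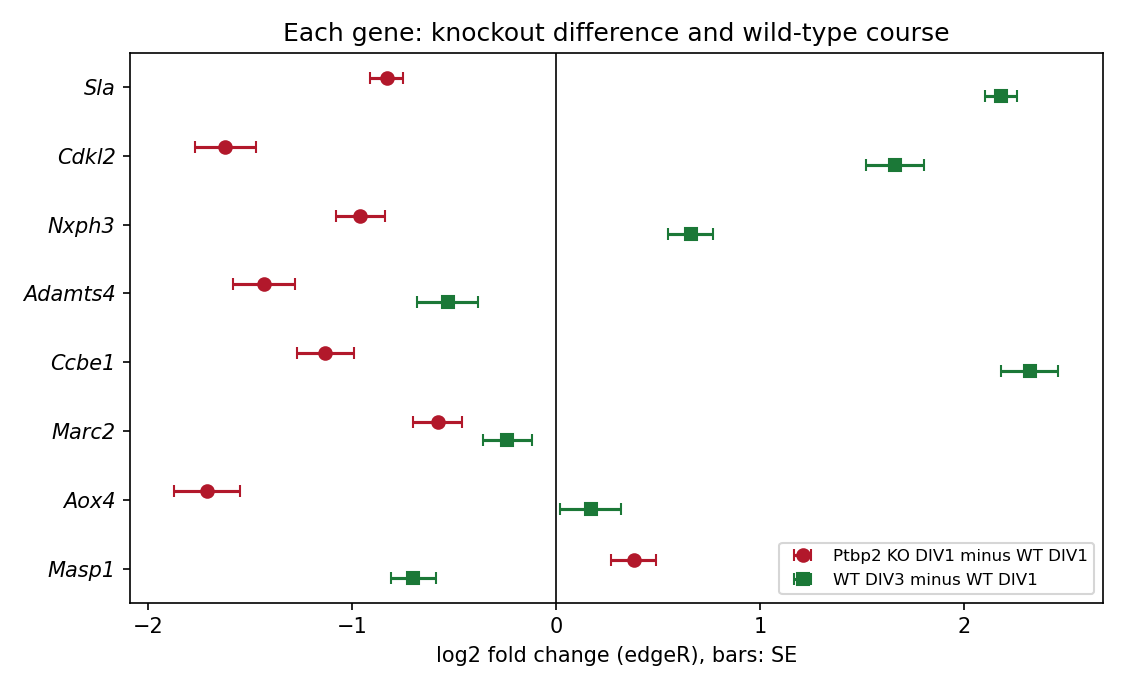
Log2 fold change with SE (bars) of each of the 8 genes in Ptbp2 KO DIV1 minus WT DIV1 (circles) and WT DIV3 minus WT DIV1 (squares). The points lie on opposite sides of 0 for Sla (-0.83 and 2.18), Cdkl2 (-1.62 and 1.66), Nxph3 (-0.96 and 0.66), Ccbe1 (-1.13 and 2.32) and Masp1 (0.38 and -0.70). The same holds for Aox4 (-1.71 and 0.17). They lie on the same side for Adamts4 (-1.43 and -0.53) and Marc2 (-0.58 and -0.24).

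Side by side, the knockout values of Sla, Cdkl2, Nxph3 and Ccbe1 lay below wild type at DIV1 and those of DIV3 above it. Cdkl2, for example, had means of 3.50 ± 0.722 CPM (SD, n = 2) in the knockout, 10.8 ± 0.0218 CPM in DIV1 wild type and 34.0 ± 0.827 CPM at DIV3. Masp1 had the opposite order, with 61.8 ± 8.63 CPM (SD, n = 2) in the knockout, 47.4 ± 0.957 CPM in DIV1 wild type and 29.1 ± 0.229 CPM at DIV3. Adamts4, at 3.41 ± 0.431 CPM in the knockout, lay under both wild-type stages (9.19 ± 1.06 and 6.36 ± 0.395 CPM). Aox4, at 0.855 ± 0.0206 CPM in the knockout, lay under wild-type levels that were close to each other (2.81 ± 0.165 and 3.16 ± 0.0571 CPM).

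Per length, in TPM (transcript counts over annotated lengths, scaled to the same sum in each library), Marc2 was the most abundant of the 8 in DIV1 wild type at 60.0 ± 0.0163 TPM (SD, n = 2). Sla followed at 42.1 ± 2.72 TPM, Masp1 at 19.3 ± 0.516 and Nxph3 at 16.3 ± 1.44 TPM. Cdkl2 stood at 6.27 ± 0.233 TPM, Adamts4 at 4.61 ± 0.565, Ccbe1 at 2.95 ± 0.234 and Aox4 at 1.25 ± 0.0822 TPM, and each gap in this order exceeded the SDs of its neighbours. At DIV3 Sla led at 190.4 ± 1.54 TPM, and Ccbe1, at 14.3 ± 1.11 TPM, stood above Masp1 at 11.5 ± 0.380 TPM. In the knockout, Masp1 at 23.2 ± 5.05 TPM and Sla at 22.5 ± 0.879 TPM did not differ beyond their spread. The same held for Cdkl2 at 1.85 ± 0.619, Adamts4 at 1.58 ± 0.321 and Ccbe1 at 1.24 ± 0.271 TPM.

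The deposited transcript table holds 35 transcripts of the 8 genes. Nxph3 and Masp1 have a single transcript there (Nxph3-201 with 2 exons, Masp1-201 with 16), so the alternative products that Masp1 is known to encode could not be separated here. A transcript's share is its percentage of the expected counts of its gene. RSEM divides reads shared by transcripts of a gene by its model, and the error of that division is not in the values.

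Sla has start sites far apart on chromosome 15, with Sla-202 beginning at 66831646 and Sla-201 at 66812593. In wild type at DIV1, Sla-202 held 82.3% and 79.5% of the gene and Sla-201 14.5% and 18.2%. In the knockout, Sla-202 held 44.1% and 74.0% and Sla-201 53.9% and 22.4%. The wild-type libraries were alike and the knockout libraries were not: knockout replicate 1 assigned most of Sla to Sla-201. As levels, Sla-202 stood at 47.4 and 42.3 CPM in DIV1 wild type and 13.9 and 22.8 CPM in the knockout. Sla-201 stood at 8.33 and 9.69 CPM in DIV1 wild type and at 17.0 and 6.89 CPM in the knockout, on both sides of wild type. At DIV3, Sla-202 held 84.8% and 80.9%, and the isoform test between DIV3 and DIV1 gave Sla an adjusted p = 1 (edgeR diffSpliceDGE, Simes, Benjamini-Hochberg).

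Cdkl2 counts went mainly to Cdkl2-201 (13 exons) and Cdkl2-202 (14 exons). Cdkl2-202 held 43.9% and 58.6% of the gene in DIV1 wild type, 38.1% and 39.6% at DIV3, and 39.8% and 67.3% in the knockout, so its knockout values lay on both sides of those of DIV1 wild type and above those of DIV3. Cdkl2-204, from the start site with the GC-rich window printed above, held 7.39% and 3.56% in DIV1 wild type, 9.04% and 7.06% at DIV3, and 1.26% and 1.43% in the knockout. Its share was lowest in both knockout libraries. As levels, it stood at 0.799 and 0.384 CPM in DIV1 wild type, 3.03 and 2.44 CPM on DIV3 and 0.0377 and 0.0572 CPM in knockout libraries, the last from 2.0 and 4.2 expected counts. The isoform test between DIV3 and DIV1 gave Cdkl2 an adjusted p = 1 (edgeR diffSpliceDGE, Simes).

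**Figure D4:**
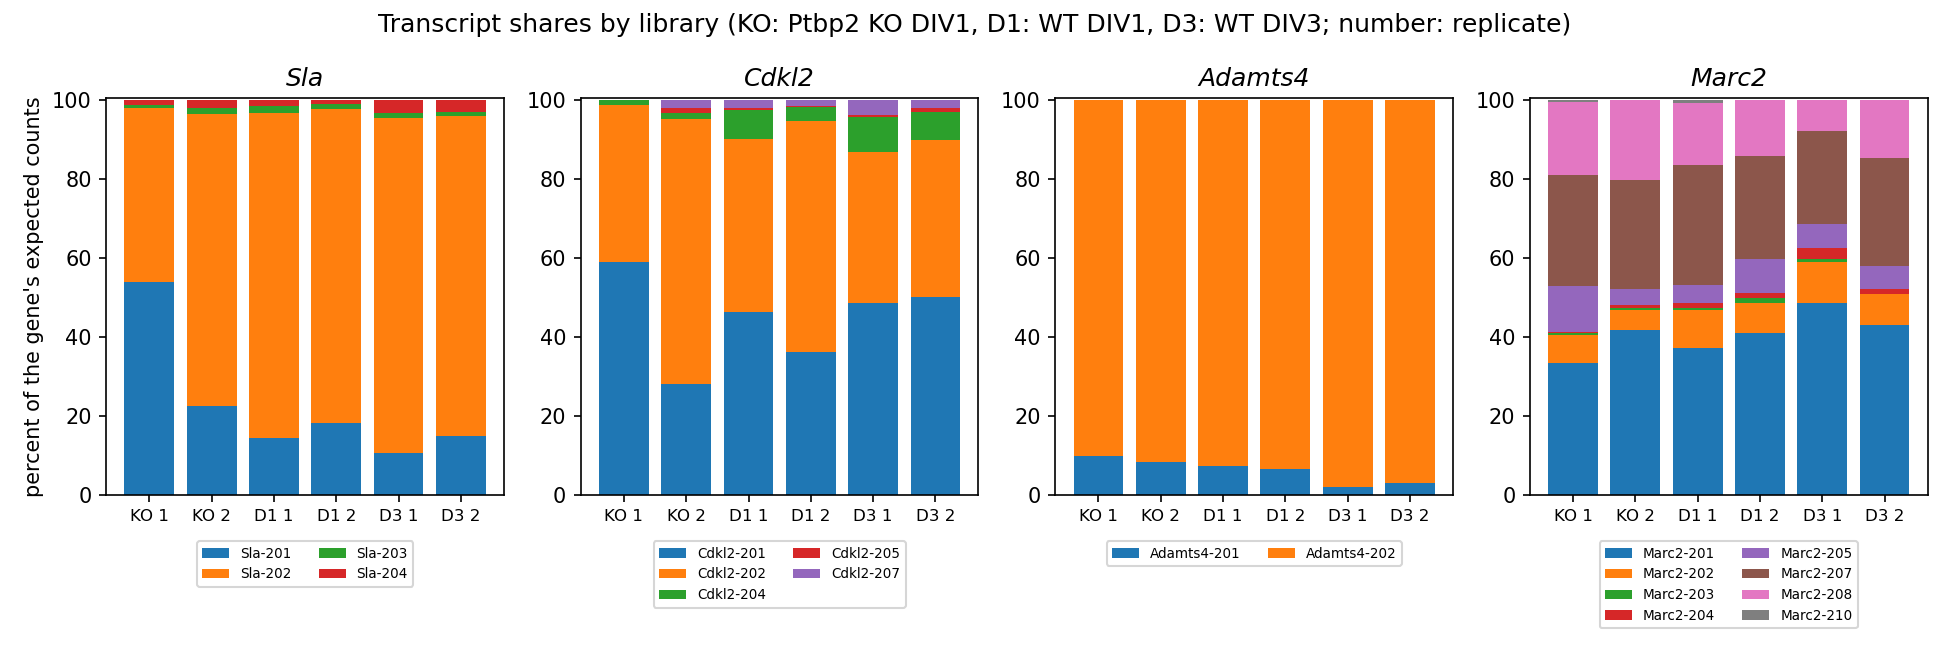
Share of each transcript in the expected counts of Sla, Cdkl2, Adamts4 and Marc2 (percent, stacked bars to 100) in each of the 6 libraries. Sla-201 takes 53.9% in knockout replicate 1 and between 10.6% and 22.4% in the other libraries, and Adamts4-201 takes least at DIV3 (1.89% and 2.89%).

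Adamts4-202, the transcript with 9 exons, held 92.8% and 93.5% of Adamts4 in DIV1 wild type and Adamts4-201, which starts further downstream, the other 7.20% and 6.55%. The Adamts4-201 share was 1.89% and 2.89% at DIV3 and 9.92% and 8.33% in the knockout. The DIV3 difference did not pass (adjusted p = 1, edgeR diffSpliceDGE, Simes; adjusted p = 0.116 with its F test). Ccbe1 counts went almost wholly to Ccbe1-201, with 98.0% and 99.7% in DIV1 wild type, 97.1% and 97.2% at DIV3, and 98.7% and 95.8% in the knockout. GENCODE labels Ccbe1-201 as a nonsense-mediated decay transcript, while the protein-coding Ccbe1-202 held between 0 and 3.78% in the 6 libraries. Aox4-201, with 35 exons, held between 93.5% and 100% of Aox4. Marc2 was spread over 8 transcripts with counts, led by Marc2-201 with 37.2% and 41.0% in DIV1 wild type, 48.6% and 42.9% at DIV3, and 33.3% and 41.7% in the knockout (DIV3 against DIV1 adjusted p = 1, edgeR diffSpliceDGE, Simes). Of 7645 genes tested for isoform usage between DIV3 and DIV1, 0.602% were called, and 0 of the 4 tested here (Sla, Cdkl2, Adamts4 and Marc2).

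Genes that overlap some of these in the annotation bear on the counts, since the strand setting of the authors' counting is not given in the sources used here. Cdkl2 shares 166 nt with the noncoding Gm26582, at most 0.903 CPM in any library, and Ccbe1 320 nt with the antisense Gm15958, at most 0.194 CPM. Sla lies within Tg, the thyroglobulin gene on the other strand, with 0 nt of shared exon, and Tg stood between 0.216 and 0.485 CPM.

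The families and pathways of the 8 genes were described from 7 lists. In each list 0 genes were called between knockout and wild type by edgeR, as among all 16847 genes tested. For the DIV3 counts of every list, the shares over all genes tested were 19.8% called higher and 16.4% called lower. Of 5 CDKL kinases, 3 rose from DIV1 to DIV3 and 0 fell, with a median log2 fold change of 1.08. Besides Cdkl2, Cdkl1 rose from 0.994 and 1.04 to 2.05 and 2.26 CPM (1.08 ± 0.20, adjusted p = 0.00619, edgeR). Cdkl3 had 0.24 ± 0.10 (adjusted p = 0.0956, edgeR). In the knockout, Cdkl3 stood at 13.7 and 14.4 CPM, against 12.6 and 12.7 CPM in DIV1 wild type. The median of the list in the knockout was -0.32.

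Of 7 neurexophilins and neurexins, 6 rose at DIV3 and 1 fell (median log2 fold change 0.89). Nrxn2 had 1.05 ± 0.08 (adjusted p = 0.000208, edgeR) and Nxph4 -1.35 ± 0.12 (adjusted p = 0.000356), so the neurexophilin genes moved in both directions. In the knockout, Nxph3, Nxph1 and Nxph2 had log2 fold changes of -0.96, -0.48 and -0.59 and Nxph4 0.09, with a list median of -0.35. Nxph1 stood at 12.1 and 13.1 CPM in DIV1 wild type and 8.42 and 9.66 CPM in the knockout.

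**Figure D5:**
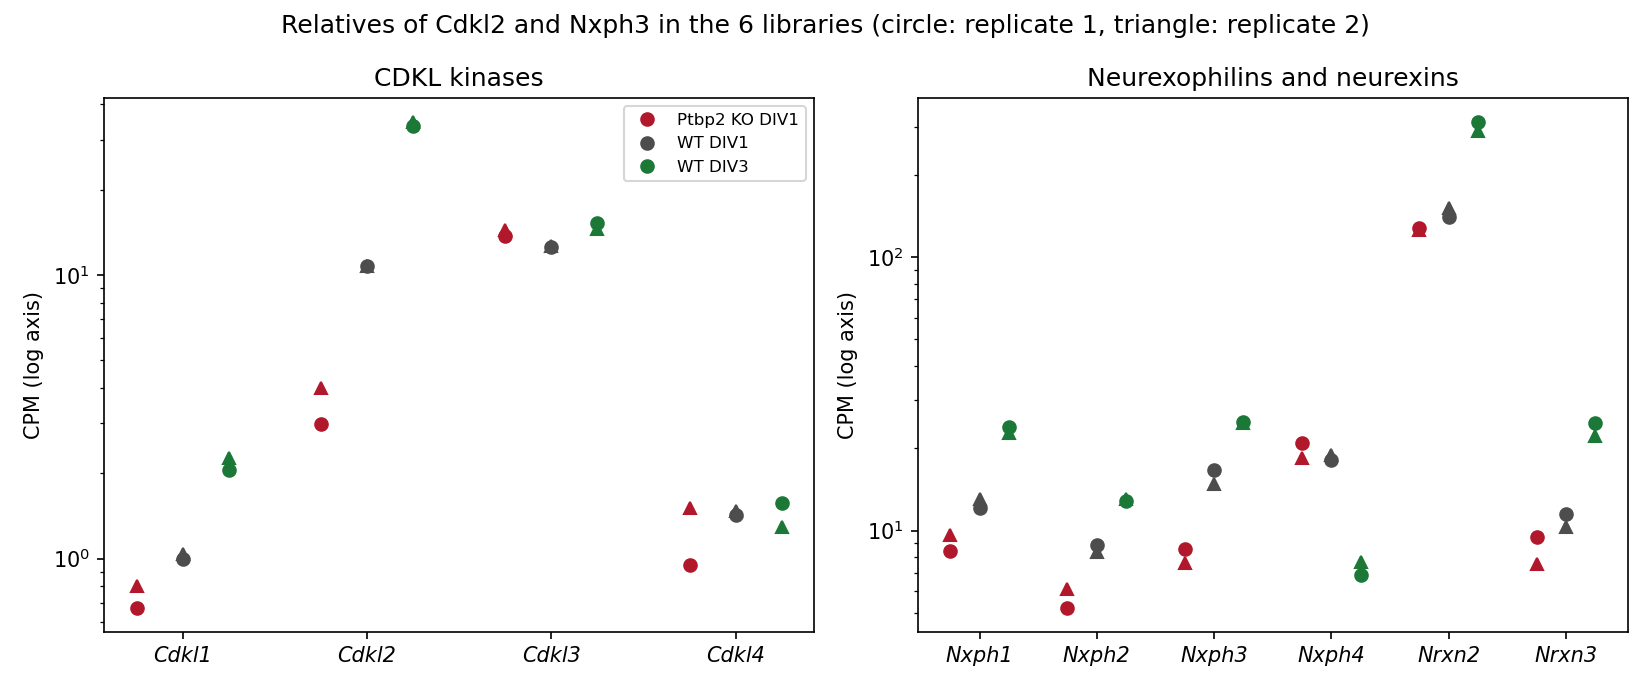
Level (CPM, log axis) of 4 CDKL kinase genes and of 6 neurexophilin and neurexin genes in the 6 libraries, with circles for replicate 1 and triangles for replicate 2. Cdkl2 spans 2.99 to 34.6 CPM while Cdkl3 stays between 12.6 and 15.3 CPM, and Nxph4 is lowest at DIV3 where the other 5 genes of its panel are highest.

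Of 12 genes for hyalectan-cleaving proteases, their proteoglycan substrates and the inhibitor TIMP3, 4 rose at DIV3 and 2 fell (median 0.23, and -0.14 in the knockout). Acan, the aggrecan gene, had 2.55 ± 0.25 (adjusted p = 0.000546, edgeR), Adamts15 1.5 ± 0.18 (adjusted p = 0.0011) and Adamts8 0.77 ± 0.17 (adjusted p = 0.0114). Adamts4 thus moved against the proteases Adamts15 and Adamts8, though its call was lost when any wild-type library was left out. The other gene called lower was Timp3 (-0.53 ± 0.12, adjusted p = 0.0146, edgeR). Ncan, the neurocan gene, had 0.13 ± 0.08 (adjusted p = 0.266, edgeR). Of 8 tested genes of the VEGFC axis, 3 rose at DIV3 and 0 fell (median 0.14, and -0.22 in the knockout). They were Ccbe1, Adamts2 (1.18 ± 0.17, adjusted p = 0.00255, edgeR) and Nrp2, a VEGFC and semaphorin receptor (0.50 ± 0.11, adjusted p = 0.0142). Adamts3, the protease that acts with CCBE1, stood at 30.8 and 28.4 CPM in DIV1 wild type, 30.8 and 21.7 CPM on DIV3 and 8.87 and 23.2 CPM in knockout libraries (DIV3 against DIV1 -0.17 ± 0.40, adjusted p = 0.773, edgeR). Vegfc itself lay between 1.96 and 3.64 CPM, and Flt4, the gene of the VEGFC receptor VEGFR3, at most at 0.196 CPM.

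Of 11 tested genes for molybdenum cofactor synthesis and molybdenum enzymes, 0 rose at DIV3 and 1 fell (median 0.15, and 0.01 in the knockout). Mocs1, for the opening step of cofactor synthesis, had -0.61 ± 0.12 (adjusted p = 0.00876, edgeR). Cyb5b, for the cytochrome b5 that passes electrons to the MARC enzymes, had 0.16 ± 0.08 (adjusted p = 0.161). Of the other aldehyde oxidase genes, Aox1 reached at most 0.305 CPM, Aox2 0.0829 and Aox3 0.0374 CPM. Marc1, the neighbour and paralog of Marc2, reached at most 0.111 CPM. In the lectin pathway, 5 of 14 genes were tested, 0 rose at DIV3 and 2 fell (median -0.70, and 0.15 in the knockout). With Masp1 fell Serping1, the gene of the C1 inhibitor that blocks MASP proteases, from 6.57 and 7.15 to 1.68 and 2.48 CPM (-1.75 ± 0.20, adjusted p = 0.000853, edgeR). Colec12, for a scavenger receptor of the collectin family, had 0.86 ± 0.35 (adjusted p = 0.0974, edgeR). The recognition genes Mbl1, Fcnb and Colec10 had 0 counts in all 6 libraries.

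Of 16 tested SLAP adaptors, SRC-family kinases and partners, 4 rose at DIV3 and 0 fell (median 0.08, and -0.03 in the knockout). Besides Sla, Pdgfrb (1.01 ± 0.17, adjusted p = 0.0041, edgeR) and the kinase gene Fyn (0.37 ± 0.07, adjusted p = 0.00664) rose, and Cbl, for the ubiquitin ligase that SLAP recruits, had 0.11 ± 0.17 (adjusted p = 0.652). Sla2, the paralog of Sla, reached at most 0.0589 CPM. The 7 lymphocyte markers summed to 5.26 to 5.37 CPM in DIV1 wild type, 3.90 to 3.93 CPM at DIV3 and 5.33 to 7.83 CPM in the knockout. Lck, a SRC-family kinase gene that is also in the adaptor list, made up nearly all of these sums at 3.80 to 7.70 CPM. Cd3g and Cd8a had 0 counts in all 6 libraries, and no marker other than Lck exceeded 0.112 CPM.

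Markers of other cells were set beside the knockout values. The summed level of 6 erythroid genes was 12.3 to 23.7 CPM in DIV1 wild type and 29.9 to 37.9 CPM in the knockout. That of 8 progenitor markers was 2384 to 2453 and 2483 to 2754 CPM, that of 6 astrocyte markers 242 to 254 and 211 to 232 CPM, and that of 7 oligodendrocyte lineage markers 30.8 to 31.6 and 27.7 to 28.0 CPM. The 10 pericyte and fibroblast markers (17.0 to 18.3 and 16.1 to 21.5 CPM) and the 8 microglia markers (9.17 to 9.59 and 8.97 to 8.98 CPM) were at similar sums, and the 7 endothelial markers at 3.65 to 4.02 and 4.25 to 4.48 CPM, with Cldn5, Tek and Cdh5 under 0.1 CPM in every library. The part of the erythroid, progenitor, astrocyte and oligodendrocyte sums in the 8 differences was not tested.

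For each gene, the other genes most like it were found by Pearson correlation of log2(CPM + 0.5) over the 6 libraries, among 12079 named genes averaging at least 1 CPM. The 6 points are 3 groups of 2. Sla was most like Lingo2 (r = 0.9996) and Rcan3 (0.9994), Cdkl2 like Cln8 (0.9998) and Cntnap4 (0.998), Ccbe1 like Farp1 (0.9994) and Myo18a (0.9993), and Nxph3 like Castor2 (0.9945) and Lrrtm3 (0.994). This correlation does not measure the size of a change. Cln8 lay between 30.8 and 36.0 CPM and Cdkl2 between 2.99 and 34.6 CPM. Myo18a lay between 143 and 204 CPM and Ccbe1 between 2.91 and 37.3 CPM. Lingo2 lay between 1.86 and 11.4 CPM and Sla between 30.8 and 257 CPM. Adamts4 was most like Ripk1 (0.9889), Marc2 like Ripk2 (0.9664) and Kcng1 (0.9635), and Masp1 like Stra6l (0.9976) and P2rx3 (0.9963). Aox4 was most like Lhx6 (0.997) and Ano4 (0.9888). Lhx6, a transcription factor gene of cortical interneurons, stood at 12 and 12.2 CPM in DIV1 wild type, at 13.7 and 12.7 CPM on DIV3 and at 6.59 and 6.86 CPM in knockout libraries. A list of 16 interneuron markers, chosen after this value was seen, summed to 226 to 236 CPM in DIV1 wild type and 202 to 222 CPM in the knockout. Among the 28 pairs of the 8 genes, which include the knockout libraries they were chosen on, r ran from -0.98 (Sla with Masp1) to 1.00 (Sla with Ccbe1). It was 0.93 or more for each pair of Sla, Cdkl2, Nxph3 and Ccbe1, and Masp1 lay between -0.98 and -0.95 with these genes. Other pairs varied, from 0.34 for Sla with Marc2 and 0.39 for Sla with Adamts4 to 0.86 for Adamts4 with Marc2. Aox4 had 0.90 with Cdkl2 and 0.93 with Nxph3.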

How the data were processed

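Total RNA of 6 libraries was made into stranded libraries with an Illumina TruSeq total RNA kit, per the labels' protocols. The authors deposited expected counts per gene and per transcript, made with STAR and RSEM on GRCm38 (mm10) per the submitters' processing notes; the sources used here do not give versions, annotation release or strand setting. Names, lengths and coordinates came from GENCODE M21 by identifier, which matched 99.5% of genes and 99.4% of transcripts. Counts were rounded, filtered with filterByExpr (minimum count 10), scaled by TMM and tested with edgeR 4.0.16 (R 4.3.3) quasi-likelihood F tests over all 6 libraries, with Benjamini-Hochberg adjustment over all genes; the SE is the log2 fold change over the square root of F. Isoform usage was tested with diffSpliceDGE for transcripts with a share of at least 5% in a group. Scripts were tested on simulated data. The members and lists were chosen with earlier results of these data known. Named list genes are up to 3 called with the smallest adjusted p at DIV3 and the most abundant not called; other list genes named were chosen after their values were seen. Library totals were 39104879 to 75522198, so counting error is small for all but the lowest values. DESeq2 1.42.0, other scalings, a length correction, a block and left-out libraries were alternatives. Some genes that the rule would name are not reported here.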

Additional observations from a re-analysis of the deposited data

How the results depend on the processing

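In the DIV3 comparison, no direction of the 8 genes reversed under the 14 alternatives. In the knockout comparison the directions were fixed by the choice of the genes, so their signs under the alternatives show nothing. At DIV3, 105 of 112 values stayed on the same side of the threshold; the exceptions were 6 lost calls, 5 of Adamts4 and 1 of Nxph3, and 1 gained call, of Marc2. Libraries of different groups share replicate numbers, and whether these numbers pair the libraries is not settled by the values here. Same-numbered deviations correlated over genes at 0.38 between the wild-type groups, which are those of the DIV3 comparison. They correlated at 0.04 between wild type at DIV1 and knockout, and at -0.09 between DIV3 and knockout. With the replicate number as a block, Adamts4 at DIV3 had an adjusted p = 0.0656 (edgeR), 4702 genes were called at DIV3, 0 in the knockout and 33 for isoform usage. The block with the length trend removed, chosen after seeing the data, called 6431 and 0. A group left with 1 library was assumed to vary like the others. Genes called in the knockout, 0 in the main edgeR test, were 1061 with no low-count filter, 26 with the length trend removed and 208 by DESeq2, and from 0 to 5549 when a library was left out. Genes called at DIV3 ranged from 2743 (without wild-type DIV1 replicate 2) to 8698 (without knockout replicate 1) when a library was left out. Isoform usage calls, 46, were 27 with a share minimum of 10%, 179 by the F test, and from 31 to 91 when a library was left out. The cause of these shifts was not tested. Library totals in place of TMM moved the all-gene median at DIV3 (log2) to -0.133, with 39.1% of calls higher against 54.7%. Low counts limit Aox4 in the knockout (45 and 64) and Cdkl2-204.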
